A study of Mus musculus with 3 samples.

Results

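The annexins measured here are 7 of 8 listed members of the family, Anxa1 to Anxa7, read from 17 probe sets of the 45101 on the array. A probe set was counted as a member if the array's annotation gave it a listed annexin as its only gene symbol. Anxa11 was listed too, but 1 probe set that carries its symbol also carries other symbols, so Anxa11 is not analysed here. The arrays measured the mouse T-lymphoma cell line WR19L, which comes from the BALB/c strain, with 1 array for each of 3 kinds of untreated cells. Parental WR19L cells were on the first array. The second held DKO cells, a derivative of WR19L described in the labels as lacking flippase activity, with a stable transgene of human ATP11A (the wild-type line). The third was of DKO cells in which the stable transgene was the Q84E mutant of ATP11A (the Q84E line). Both transgenic lines thus share the DKO background, and each is a separately derived line, so in a ratio over parental cells the knockout, the transgene and the derivation of the line cannot be told apart. DKO cells without a transgene were not analysed here. No group has a replicate, so differences are described by size without a test or p-value, and the number of arrays limits the precision.

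Annexins are proteins of the cytosol that bind acidic phospholipids, above all phosphatidylserine, when calcium rises. They share a core of repeated helical domains that carry the calcium sites, and differ in the short tail that precedes it. ATP11A is a flippase, an enzyme that pulls phosphatidylserine out of the outer face of the plasma membrane into its inner face, where cytosolic annexins meet it. Labelled annexin A5 is the common stain for phosphatidylserine that has reached the cell surface. What was measured here was the mRNA of the cells' own annexins, not that binding.

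By their brightest probe sets, Anxa2, Anxa5, Anxa6 and Anxa7 gave a signal above the floor on all 3 arrays, and none of these 4 was more than 1.35-fold apart between any of the 3 kinds of cells. Anxa1 passed the floor on 1 array, and Anxa3 and Anxa4 on none, so no such limit can be given for them. The floor is the median signal of all probe sets on an array, with values of 50.3 in parental cells, 50.5 in the wild-type line and 55.5 in the Q84E line, and any lower signal was raised to it. Of the 17 probe sets, 11 reached it on at least 1 array and were compared, and these belong to 5 genes. The floor bounded or set each ratio of Anxa1, so counts over the 5 genes tell nothing about it. None of the 5 genes was 2-fold apart in any of the 3 comparisons by its brightest probe set. A single other probe set was, a dim one of Anxa2. Over all 11596 genes compared, 1.45% were at least 2-fold apart for wild-type ATP11A over parental, 2.42% for Q84E over parental and 1.35% for Q84E over wild-type ATP11A. At 1.5-fold 0 of the 5 genes were apart, against 7.07%, 10.3% and 7.75% of all in the same order. The widest ratio of the 4 annexins above the floor on all arrays was that of Anxa6, 1.35-fold higher with Q84E than with wild-type ATP11A.

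The upstream sequences of 3 members are shown because they set Anxa1, under the floor in parental cells, beside Anxa2 and Anxa5, above it on every array. By its brightest probe set Anxa7 had higher signals than these. Anxa4 was under the floor on all 3 arrays, with up to 31.5 in parental cells against 27.3 for Anxa1. Each is the 250 bases before the annotated start of the gene, read 5′ to 3′ on the gene's own strand, from RefSeq, build GRCm38.p6. Capitals mark TATAAA and GGGCGG and their reverse complements. A match of one motif cannot overlap a match of the other, while matches of the same motif can overlap on one or both strands, which none of those shown do.
Anxa1 upstream, chr19:20390672-20390921 (-): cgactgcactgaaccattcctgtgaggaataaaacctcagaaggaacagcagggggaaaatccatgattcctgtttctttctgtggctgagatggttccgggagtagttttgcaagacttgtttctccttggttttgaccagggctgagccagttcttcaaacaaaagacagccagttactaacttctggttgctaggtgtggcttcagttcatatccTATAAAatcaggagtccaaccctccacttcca
Anxa2 upstream, chr9:69453433-69453682 (+): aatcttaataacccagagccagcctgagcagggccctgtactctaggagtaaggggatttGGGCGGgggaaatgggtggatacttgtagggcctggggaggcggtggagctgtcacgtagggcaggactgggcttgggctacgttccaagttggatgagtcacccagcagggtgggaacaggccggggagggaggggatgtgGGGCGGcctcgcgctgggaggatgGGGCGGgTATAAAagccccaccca
Anxa5 upstream, chr3:36475888-36476137 (-): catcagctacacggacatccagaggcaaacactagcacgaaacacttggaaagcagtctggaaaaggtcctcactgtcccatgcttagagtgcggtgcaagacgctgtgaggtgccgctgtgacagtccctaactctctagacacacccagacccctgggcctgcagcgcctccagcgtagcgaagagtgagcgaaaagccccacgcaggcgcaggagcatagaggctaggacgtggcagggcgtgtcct
Of 32851 such windows of all genes, 12.4% held TATAAA and 32.7% held GGGCGG on either strand. The Anxa1 window held TATAAA, beginning 32 bases before the start, and no GGGCGG, and it had 2 CpG dinucleotides against a median of 6 over all windows. The Anxa2 window held TATAAA, beginning 17 bases before the start, and GGGCGG 3 times, with 9 CpG dinucleotides. The Anxa5 window held neither motif and had 13 CpG dinucleotides. The table gave windows for 6 of the 8 listed genes. Anxa4, under the floor on all 3 arrays, had 1 window with 13 CpG dinucleotides and 1 with 2. Anxa7, above the floor on all 3, likewise had 1 window with 16 and 1 with 2. The start in use was not measured, and a link of CpG content to signal was not tested. The motif matches describe letters and were not tested as sites.

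**Figure D1:**
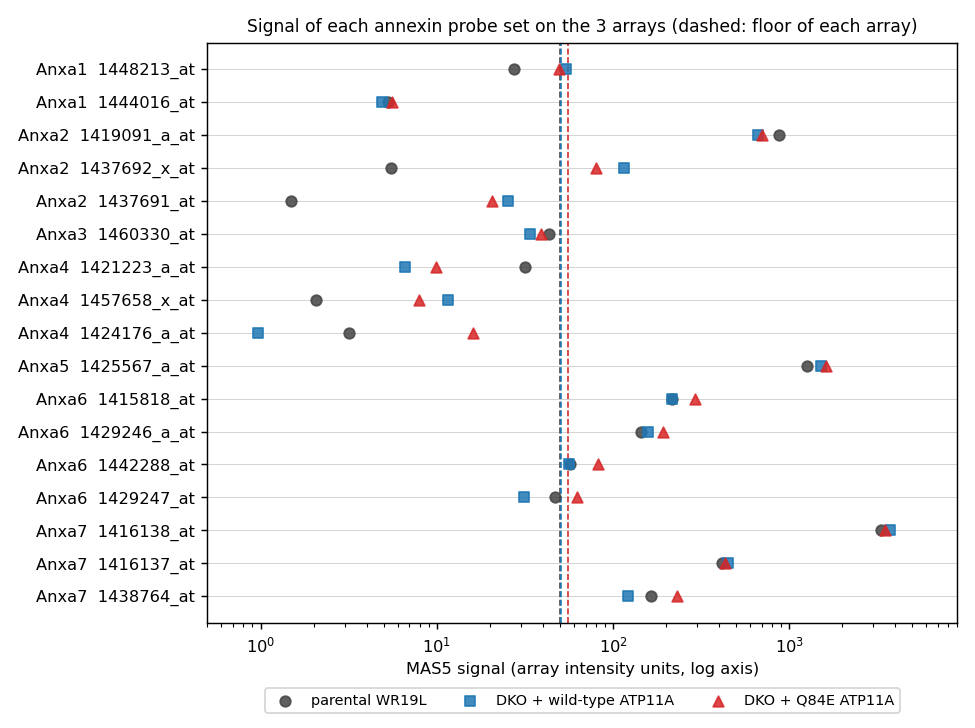
Signal of each of the 17 annexin probe sets (rows) on a log axis, with 1 marker for each of the 3 arrays and dashed lines at the floors of 50.3 (parental), 50.5 (wild-type ATP11A) and 55.5 (Q84E). The bright probe sets of Anxa2, Anxa5 and Anxa7 have 3 markers close together far right of the floor, those of Anxa6 lie nearer to it with the Q84E marker to the right, and those of Anxa3 and Anxa4 lie left of it.

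As a yardstick for technical error, the log2 ratios of 2 probe sets of the same gene were compared over all genes. Scaled to 1 probe set, the SD of that difference was 0.33 to 0.35 for probe sets in the signal range from the 50th to the 75th percentile, 0.18 to 0.19 from the 75th to the 90th, and 0.10 to 0.12 above the 90th. This SD holds no difference between cultures. The probe set of mouse Atp11a with the higher signal gave 478 in parental cells, 253 in the wild-type line and 244 in the Q84E line. The other gave 131, 16.3 and 31.7, above the floor in parental cells alone. Whether these probe sets also read the transgenes was not tested, so they do not give the total ATP11A mRNA. The labels do not name the deleted genes. Of 10 T cell marker genes with a probe set, 8 were above the floor on each array, while Cd3e and Cd5 were under it on all 3. With the highest probe set of each gene these markers summed to 59151 in parental cells, 52429 in the wild-type line and 57638 in the Q84E line. Their largest ratios were those of Cd2, with signals of 1518, 821 and 1584, and Cd3d, with 6898, 4272 and 6976 in the same order. Among markers of B cells, myeloid cells, fibroblasts and epithelia, the highest signal on any array was 158. Above the floor were 2 or 3 of 5 B cell markers, led by Blnk at 78.2, 131 and 69.2 and Pax5 at 70.9, 80.9 and 97.6. Of 6 myeloid markers 2 or 3 were, led by Csf1r at 99.8, 158 and 114 and Cd68 at 52.8, 76.6 and 63.6. Of 6 fibroblast markers 1 was, Col1a2, at 54.3, 85.4 and 84.1. Of 5 epithelial markers 1 or 2 were, with Krt8 above the floor on each array at 53.8, 68.0 and 69.7. Epcam gave 28.2, 106 and 33.8 with its _x_at probe set, where the wild-type signal alone was above the floor. Its other probe set gave 7.85, 8.41 and 8.36. Summed over each list, the myeloid markers gave 269.8, 357 and 338, the epithelial markers 138, 219 and 154, the fibroblast markers 180, 244 and 172 and the B cell markers 251, 269.8 and 246. All 4 sums were highest on the wild-type array, where the T cell sum was lowest. Signals under the floor are part of these 4 sums, so their order between the arrays cannot be read. The part of these markers in the results on annexins was not tested.

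Anxa5 encodes the annexin used as the phosphatidylserine stain, and in cells the protein forms a lattice on membranes at sites of injury. Its single probe set, 1425567_a_at, gave a signal of 1254 in parental cells, 1514 in the wild-type line and 1622 in the Q84E line. Both DKO lines were thus above parental cells and close to each other. The level was 1.21-fold higher in the wild-type line than in parental cells and 1.29-fold higher in the Q84E line than in parental cells. These log2 ratios of 0.27 and 0.37 lay less than 2 times the probe set SD, 0.18 and 0.19, from the median of all probe sets. Of 6364 compared probe sets in the same class of signal, 19.5% lay at least as far from that median for the wild-type line over parental cells and 25.8% for the Q84E line. With the arrays set to a common median, the log2 ratio of the Q84E line to parental cells was 0.23 in place of 0.37, and with quantile normalization 0.38. Between the DKO lines the log2 ratio was 0.10 for Q84E over wild-type, which turned to -0.037 with a common median and was 0.098 with quantile normalization.

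Anxa2 encodes a membrane and actin binding protein that pairs with the S100 protein made from S100a10. Its brightest probe set, 1419091_a_at, gave 873 in parental cells, 663 in the wild-type line and 702 in the Q84E line. Parental cells had the highest level, and the DKO lines were 1.06-fold apart. The level was 1.32-fold lower in the wild-type line than in parental cells, a log2 ratio of -0.40 against a probe set SD of 0.18. It was 1.24-fold lower in the Q84E line than in parental cells, a log2 ratio of -0.31 with an SD of 0.19. The first of these lay more than 2 times the SD from the median of all probe sets, and 7.90% of 6364 probe sets in its class lay at least as far. For Q84E over parental that share was 17.8%. The log2 ratio of 0.083 for Q84E over wild-type became -0.054 with a common median and 0.023 with quantile normalization.

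A dimmer Anxa2 probe set ran the opposite way. Probe set 1437692_x_at gave 5.51 in parental cells, 115 in the wild-type line and 80.4 in the Q84E line, so it was under the floor in parental cells and above it in both DKO lines. Against the floor it was at least 2.28-fold higher in the wild-type line than in parental cells, and at least 1.60-fold higher in the Q84E line than in parental cells. It was the 1 annexin probe set of 11 at least 2-fold apart for wild-type over parental, while 1.52% of all 21345 compared probe sets were. No annexin probe set was for Q84E over parental or for Q84E over wild-type, against 2.46% and 1.43% of all. At 1.5-fold it was again the 1 of 11 in both comparisons with parental cells, where 7.73% and 11.4% of all probe sets passed, and 1 of Anxa7 passed for Q84E over wild-type, where 8.53% of all did. Because it was compared on account of the DKO arrays alone, it had to be higher there. The third probe set, 1437691_at, gave 1.49, 25.3 and 20.7 and was under the floor on all 3 arrays. The suffix _x_at marks probe sets whose probes can also match other sequences. The 2 compared probe sets of Anxa2 were at least 1.59 apart in log2 ratio for wild-type over parental. As the dimmer one had to be higher in the DKO lines, this width was fixed in part by its selection. With the mean over both, the log2 ratio of Anxa2 was 0.40 in place of -0.40 for wild-type over parental. For Q84E over parental it was 0.18 in place of -0.31. Both means take in bounds of the dimmer probe set, so the direction depends on whether that probe set is counted.

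Anxa6 encodes the annexin with the longest core of the family, which binds late endosomes and the plasma membrane and is linked to cholesterol handling. Its brightest probe set, 1415818_at, gave 217 in parental cells, 215 in the wild-type line and 290.0 in the Q84E line. The second, 1429246_a_at, gave 144, 158 and 192, and the third, 1442288_at, gave 57.2, 56.5 and 81.7 in the same order. The fourth, 1429247_at, gave 46.8 and 31.3, both under the floor, and 62.7 in Q84E cells. The Q84E array was highest for the 3 probe sets above the floor on every array. The fourth was compared on account of the Q84E array alone, so it had to be highest there. For Q84E over wild-type the log2 ratios were 0.43, 0.28 and 0.53, with a bound of at least 0.31 for the fourth. For Q84E over parental they were 0.42, 0.41 and 0.51, with a bound of at least 0.32. Each measured value lay less than 2 times the probe set SD of 0.33 to 0.35 from the median of all probe sets. Of 9016 probe sets of that signal class, 33.1% lay at least as far from the median as 1415818_at for Q84E over wild-type. Of 2074 genes with at least 3 probe sets above the floor on all arrays, 12.6% had all of these highest on the Q84E array.

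These 3 probe sets of Anxa6 were highest on the Q84E array under other scalings too, with smaller ratios. For 1415818_at the log2 ratio of Q84E over wild-type was 0.31 with quantile normalization and 0.29 with a common median, and that of Q84E over parental 0.29 and 0.27. Of the same 2074 genes, 8.68% and 3.95% had all such probe sets highest on the Q84E array under these scalings. A common median moved the median log2 ratio of all genes by -0.14 in both comparisons. Relative to the median of all genes, Anxa6 lay 0.38 higher for Q84E over wild-type as deposited and 0.31 with quantile normalization. A common median shifts all signals of an array alike, so it cannot change this value. Its neighbours in the pair of log2 ratios to parental cells were sought among 6889 genes. Their brightest probe sets reached the 75th percentile on at least 1 array, which that of Anxa6 did not, and were above the floor on all 3. Nearest were Nup188, at a distance of 0.021, Rdm1, at 0.021, and Pik3cg, at 0.022. Within a far wider limit of 0.2 lay 8.61% of these genes. How common the nearness of the named genes is was not measured.

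Anxa7 encodes synexin, an annexin of secretory granule fusion with a long tail, like that of annexin A11. Its brightest probe set, 1416138_at, gave 3335 in parental cells, 3727 in the wild-type line and 3502 in the Q84E line. The second, 1416137_at, gave 413, 449 and 432, again with the wild-type array highest by a small step. Their log2 ratios were 0.16 and 0.12 for wild-type over parental and -0.090 and -0.053 for Q84E over wild-type. For Q84E over parental they were 0.070 and 0.065, which became -0.072 and -0.077 with a common median, and 0.098 and -0.012 with quantile normalization. The third probe set, 1438764_at, had another order, with 165 in parental cells, 121 in the wild-type line and 232 in the Q84E line. Its log2 ratio was -0.44 in the wild-type line against parental cells. Q84E over wild-type gave 0.94, a 1.92-fold higher level. The latter lay more than 2 times the SD of 0.33 from the median of all probe sets, and 4.40% of 9016 in its class lay as far. With the mean over the 3 probe sets, the log2 ratio of Anxa7 was -0.055 in place of 0.16 for wild-type over parental, 0.26 in place of -0.090 for Q84E over wild-type and 0.21 in place of 0.070 for Q84E over parental. For Q84E over wild-type the 3 probe sets of Anxa7 spanned 1.03, and 4.77% of 1447 genes with 3 compared probe sets spanned as much or more.

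**Figure D2:**
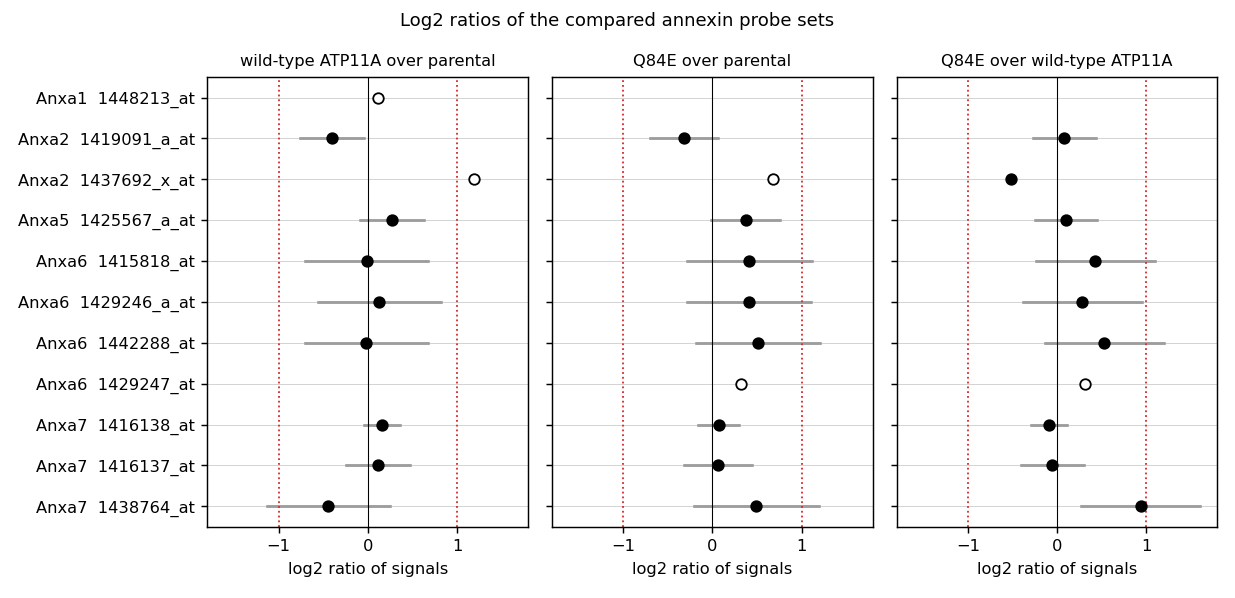
Log2 ratio of signals for the annexin probe sets (rows) in the 3 comparisons. Filled circles have both signals above the floor, open circles are bounds against the floor, grey bars span 2 probe set SDs to each side where an SD was estimated, ratios set by the floor are left out, and dotted lines mark 2-fold. The open circle of Anxa2 1437692_x_at is the sole one past a dotted line, opposite to Anxa2 1419091_a_at, and the filled Anxa6 circles lie right of 0 in both comparisons of Q84E.

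Anxa1 encodes an annexin that glucocorticoids induce and that dampens inflammation once secreted. Its brighter probe set, 1448213_at, gave 27.3 in parental cells, 54.4 in the wild-type line and 49.6 in the Q84E line. Just the wild-type ATP11A signal passed its floor, by a small margin, so the ratio over parental cells is a bound of at least 1.08-fold higher. The probe set was compared on account of the wild-type array alone, so it had to be higher there than in parental cells. No ratio of Q84E to either other array could be measured. The other probe set, 1444016_at, lay between 4.89 and 5.58. Anxa3, an annexin of neutrophil granules, gave 43.1, 33.9 and 39.0 with its single probe set, under the floor on each array. Anxa4, an annexin of epithelial membranes, had 3 probe sets with signals from 0.972 to 31.5, all under the floor. At such signals differences between arrays have no order.

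Over the probe sets with both signals above the floor, 4 of 8 had a log2 ratio above 0 for wild-type over parental, 7 of 8 for Q84E over parental, and 6 of 9 for Q84E over wild-type. With a common median these counts were 4 of 8, 5 of 8 and 4 of 9. Probe sets of 1 gene are not independent, and the 3 comparisons share arrays. The share of all probe sets above 0 was not counted, so these counts are not read as a trait of annexins. The median over the 4 genes above the floor on all arrays was 0.074, 0.22 and 0.092 in the same order, and the median of all genes compared was 0.0057, 0.068 and 0.046. With Anxa1 included the medians were 0.11, 0.14 and 0.083, of which the first falls on the bound of Anxa1 and the second on the difference between floors. With a common median the last was -0.054. Where an SD was estimated, 1 of 8 annexin probe sets lay beyond 2 SDs for wild-type over parental, 0 of 8 for Q84E over parental and 1 of 8 for Q84E over wild-type. Of all such probe sets 9.85%, 16.8% and 13.9% did.

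**Figure D3:**
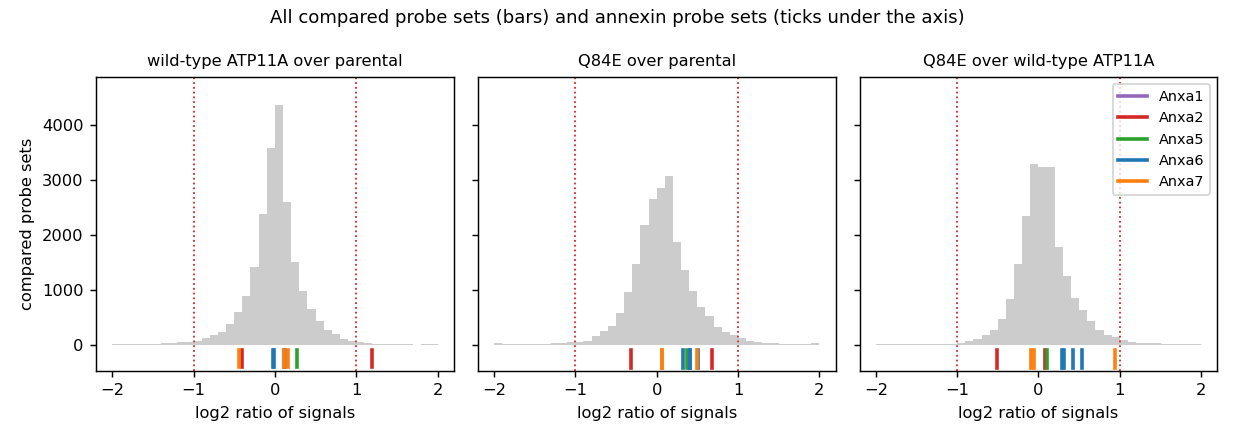
Histograms of the log2 ratio of signals over all 21345 compared probe sets in the 3 comparisons, with values beyond the axis put in the end bins, and annexin probe sets as coloured ticks under the axis, without ratios set by the floor. Dotted lines mark 2-fold, and 1 tick, of Anxa2, lies beyond one, for wild-type ATP11A over parental.

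Calcium-binding partners of annexins were set beside them. Of 10 listed genes of EF-hand partners, 7 were compared and 1 was at least 2-fold apart for wild-type over parental, against 1.45% of all genes. This was S100a4, a partner of annexin A2 linked to cell motility, with signals of 553 in parental cells, 1132 in the wild-type line and 704 in the Q84E line. It was 2.05-fold higher in the wild-type line than in parental cells and 1.61-fold lower in the Q84E than in the wild-type line. The medians of the 7 genes were 0.16, 0.35 and -0.0088 in the 3 comparisons, given as wild-type over parental, then Q84E over parental, then Q84E over wild-type. S100a10, whose product binds the annexin A2 tail, had a brightest probe set with signals of 2368, 2649 and 3161. Its probe set 1456642_x_at gave 2277, 2372 and 2126, so for Q84E over parental these were at 0.42 and -0.099, in opposite directions. S100a6, a further partner of annexins, gave 581, 842 and 837, and thus was higher in both DKO lines, at log2 ratios of 0.54 and 0.53 over parental cells. Sri, which encodes sorcin, a partner of annexin A7, gave 2343, 2759 and 3184 with its brightest probe set. Its probe set 1423155_at gave 657, 584 and 676, and a dim one gave 74.7, 104 and 114. For wild-type over parental the first 2 of these were at 0.24 and -0.17, in opposite directions. Pdcd6, which encodes the calcium sensor that binds annexins A7 and A11, gave 6212, 6099 and 5613.

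Among other annexins of the array, 1 of 4 was compared. Anxa9, an annexin with weak calcium binding, gave 235, 271 and 309 on the parental, wild-type and Q84E arrays. Against parental cells its log2 ratio was 0.20 in the wild-type and 0.40 in the Q84E line. The copines are a separate family of calcium-dependent phospholipid binders, of which 5 of 9 were compared. At least 2-fold apart was 1 copine, in the comparison of the wild-type line with parental cells and in that of the DKO lines, against 1.45% and 1.35% of all genes. Cpne6 gave 69.5, 172 and 74.5, which was 2.48-fold higher in the wild-type line than in parental cells and 2.31-fold lower in the Q84E than in the wild-type line. Cpne1 was compared at 1903, 1948 and 2038. Of 12 genes of membrane repair 7 were compared, and 1 was at least 2-fold apart for Q84E over parental, against 2.42% of all genes. This was Dysf, which encodes dysferlin, a calcium sensor of membrane resealing that works with annexins, with signals of 171, 106 and 38.9. The Q84E signal was under the floor, so the level was at least 3.07-fold lower in the Q84E line than in parental cells. It was at least 1.91-fold lower than in the wild-type line, a log2 ratio that went from -0.93 to -1.07 with a common median. Dysf was compared on account of the parental and wild-type arrays alone, so the direction was largely fixed by that selection. The medians for copines were 0.0057, 0.099 and 0.065, and for membrane repair 0.086, 0.077 and -0.12, in the order used for the EF-hand partners. With a common median those of Q84E over parental turned to -0.044 for copines and -0.065 for membrane repair, and that of Q84E over wild-type to -0.072 for copines. The 1 formyl peptide receptor gene with a probe set, Fpr2, which encodes a receptor of annexin A1, gave 60.2, 41.6 and 33.1, with the parental signal alone above the floor. Of 8 other phosphatidylserine binders 2 were compared, with none past 2-fold. Mfge8, a secreted bridge between dying cells and phagocytes, gave 703, 724 and 1008, which is 1.39-fold higher in the Q84E than in the wild-type line. Stab2, a scavenger receptor, gave 89.4, 45.6 and 41.2, with the parental signal alone above the floor.

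**Figure D4:**
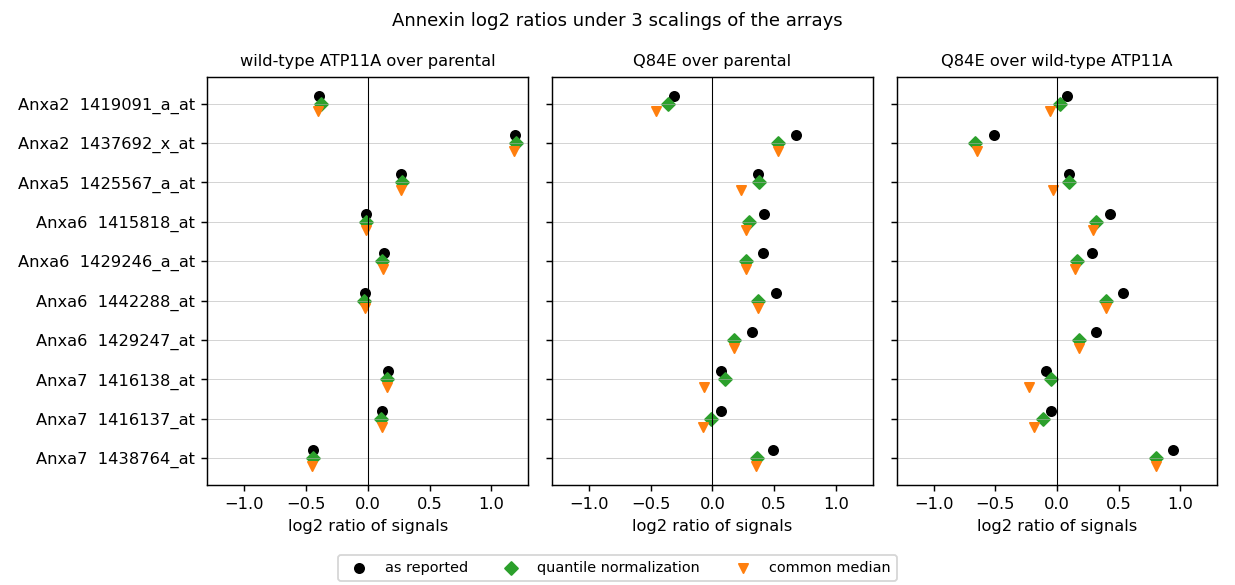
Log2 ratio of signals of the annexin probe sets above or bounded by the floor (rows), under the deposited scaling (black circles), quantile normalization (green diamonds) and a common median (orange triangles), in the 3 comparisons. Markers coincide for wild-type over parental, and in the comparisons of Q84E the changed scalings move most values to the left, so that Anxa5 and the brightest Anxa2 probe set cross 0 for Q84E over wild-type with a common median, while the 3 Anxa6 probe sets above the floor stay to the right of 0.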

How the data were processed

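Members and gene lists were chosen with earlier results of these data known. The labels' protocols give 250 ng of total RNA as the input for biotin labelling by a kit for 3' in vitro transcription. The authors deposited array intensity on a linear scale, 1 MAS5 signal for each probe set per the submitters' processing notes. No source used here gives the MAS5 version. The trimmed mean of the deposited signals, leaving out 2% at each end, was 500.0 on each array, and this scaling was kept. A single scaling factor per array can spread a shift of many genes over the others. Of the 45101 probe sets, 34958 had 1 gene symbol in the platform's annotation, 932 had several and 9211 were not listed there. A probe set was compared if it reached the 50th percentile on at least 1 array. Signals under it were set to it, and log2 ratios were differences of log2 signals. A gene was given by its brightest probe set. Calls were by size, 2-fold. Annexins were all named; from each other list, the genes past 2-fold, or else the 2 with the largest ratios, and a few partners of known annexin binding were added after their values were seen, namely S100a10, S100a6, Sri, Pdcd6 and Cpne1. The probe sets nearest to the annexin of widest range were named too. Steps were tested on simulated data. Python 3.11.15, numpy 2.4.6 and pandas 2.3.3 were used. The 9 alternatives planned and the 1 added are given with the closing observations.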

Additional observations from a re-analysis of the deposited data

How the results depend on the processing

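With 1 array per group, leaving out a replicate was not possible. No paired analysis was possible because the groups compared share fewer than 2 replicate numbers. Among alternatives for scaling, floor, filter, probe set choice and fold limit, the count of annexin genes at least 2-fold apart was 0 in all 3 comparisons under each of 10. The count of annexin probe sets for wild-type over parental went from 1 to 0 without _s_at, _x_at and _a_at probe sets, with a filter at the 75th percentile, and without _s_at and _x_at probe sets, a setting chosen after seeing the data. For Q84E over parental and for Q84E over wild-type it went from 0 to 1 with a floor at the 25th percentile, with no floor and with a 1.5-fold limit. Over parental this was Anxa2 1437692_x_at. Over wild-type it was Anxa6 1429247_at with the lower floor or none, and Anxa7 1438764_at at 1.5-fold. The Anxa2 and Anxa6 probe sets were compared on account of arrays where they were high. Shares of all probe sets with the lower floor or none were not counted. The median of the annexin genes for Q84E over parental went from 0.14 to 0.37 with a floor at the 25th percentile and with no floor. Without the _a_at probe sets no value could be given for Anxa2 and Anxa5. Of 99 values of Anxa2, Anxa5, Anxa6 and Anxa7 under alternatives, 8 moved by more than the probe set SD, all of Anxa2 or Anxa7. Most of the 99 could not move, since the floor, filter and suffix settings gave these genes the same value or none. Just quantile normalization, a common median and the mean over probe sets could change a value. For Anxa1 no probe set SD could be estimated. Anxa1 for wild-type over parental was 0.99 and for Q84E over parental 0.86 with the lower floor. Over all genes, the number at least 2-fold apart went from 168, 281 and 156 to 788, 930 and 770 with a floor at the 25th percentile, to 816, 962 and 801 with no floor, to 58, 98 and 34 with a filter at the 75th percentile and to 820, 1194 and 899 with a 1.5-fold limit. Signals near the floor limit Anxa1, Anxa3, Anxa4 and the dimmer probe sets of Anxa2 and Anxa6.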
